A study of Mus musculus with 3 samples.

Results

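Protein-coding genes whose assembled transcripts began far upstream of the RefSeq start were described in mouse heart ventricle. The assembly sorts transcripts into loci and labels each transcript by its relation to a RefSeq transcript, either a full match of the intron chain or a variant that shares at least 1 splice junction. A locus was taken when a variant of a RefSeq mRNA began 1000 bp or more upstream, by strand, of every matched mRNA of that locus, and when the matched mRNAs carried 1 gene name. Of 19551 loci with 1 protein-coding gene, 598 met this rule (3.06%, 95% Wilson interval 2.83 to 3.31). Among the 9282 loci that had any assembled variant they made up 6.44%. These loci held 1393 upstream transcripts with 1045 different 5′ ends. Where a locus had several upstream starts, the farthest one is described unless stated otherwise.

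The libraries were made from total RNA of heart ventricle of C57BL/6 mice of 2 embryonic stages, E10.5 and the later E13.5 (embryonic days), and of 8-week-old mice (Adult), with 1 stranded paired-end library each. No allele, transgene or treatment is named for any of them, and whether animals were pooled is not given in the sources used here. The study asked which long non-coding RNAs accompany genes of heart development, and the gene of Tbx5 was central to it. Without replicates, differences between stages could not be set against variation between animals, and p-values were not computed.

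Many mammalian genes have more than 1 promoter. A transcript from an upstream promoter usually carries its own first exon, which is spliced to a downstream exon of the gene, so that the protein can stay the same while the control of transcription and the 5′ untranslated region differ. Where the first coding exon is skipped, the protein can begin differently. Promoters used in many tissues often lie in DNA rich in the dinucleotide CG, written CpG, and from such promoters transcription often runs in both directions. In the heart, ankyrin-B, dystonin, neuregulin-1 and the coactivator PGC-1α are textbook cases of genes with several promoters.

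Tbx5, a T-box transcription factor of the heart and forelimb, had 2 upstream starts. Its matched RefSeq transcript began at chr5:119834663 on the plus strand (GRCm38, the assembly also called mm10). The farther upstream start lay 37981 bp before it, at chr5:119796682, and had a first exon of 191 nt that ended at 119796872. The nearer one lay 1826 bp before it, at chr5:119832837, with a first exon of 88 nt that ended at 119832924. Both first exons were spliced directly to exon 2 of the RefSeq transcript, and both kinds of transcript held the annotated coding start. The farther start was 35 bp from a RefSeq start of the later GRCm38.p6 annotation, while the nearest GENCODE M21 start on its strand was 35986 bp away. The later RefSeq set as read here includes predicted transcript models beside curated transcripts. The nearer start was 169 bp from the closest GENCODE start and the closest later RefSeq start, and a transcript of the opposite strand without a RefSeq match began 819 bp from it. The locus of Tbx5 was at 14.5 FPKM (fragments scaled to exon length and library size) at E10.5, against 7.80 at E13.5 and 4.23 in Adult. It was highest in E10.5 and lowest in Adult. This value covers all isoforms of the locus, so no level can be given to any 1 start.

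**Figure D1:**
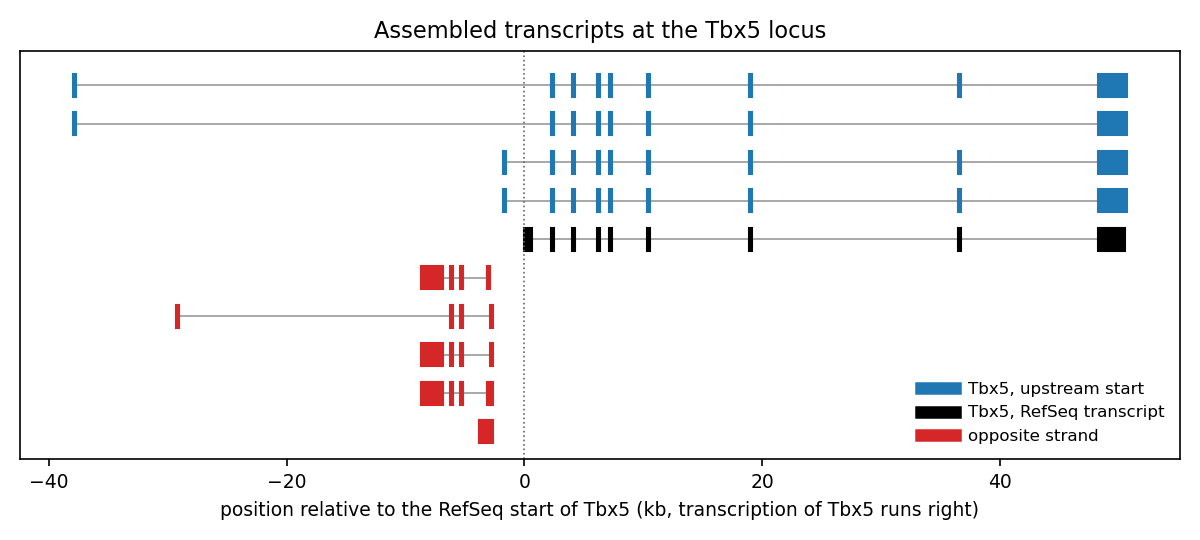
Assembled transcripts at the Tbx5 locus, with exons as boxes, introns as lines and the position in kb from the RefSeq start on the x axis (dotted line at 0). The blue transcripts with upstream starts follow the black RefSeq transcript from exon 2 on, with small differences. At each upstream start 1 transcript begins exon 2 at 2.218 kb in place of 2.213 kb, and that of the far start also lacks the exon before the last. All blue transcripts end at 50.709 kb, against 50.555 kb for the RefSeq transcript. The red transcripts run on the opposite strand.

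The 150 bases before each Tbx5 start are shown because they differ in CpG content, with every CG in capitals. They were read from the GRCm38.p6 genome on the plus strand at chr5:119796532-119796681 for the far start, chr5:119832687-119832836 for the near start and chr5:119834513-119834662 for the RefSeq start.
Tbx5 far upstream start: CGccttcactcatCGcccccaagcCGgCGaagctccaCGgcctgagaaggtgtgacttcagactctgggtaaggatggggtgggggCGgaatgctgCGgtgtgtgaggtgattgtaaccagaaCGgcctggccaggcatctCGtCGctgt
Tbx5 near upstream start: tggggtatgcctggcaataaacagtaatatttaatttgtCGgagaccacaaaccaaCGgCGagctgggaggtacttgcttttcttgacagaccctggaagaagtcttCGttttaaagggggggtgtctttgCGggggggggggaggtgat
Tbx5 RefSeq start: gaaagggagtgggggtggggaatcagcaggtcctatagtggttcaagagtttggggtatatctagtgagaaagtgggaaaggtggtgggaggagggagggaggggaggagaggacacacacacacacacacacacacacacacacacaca
The far start had 10 CG pairs and 62% G and C in these bases. The near start had 5 CG pairs, and the RefSeq start had 0 and ended in a run of CA repeats. The longer window described below gave another order for the ratio of CG pairs to their expected number. The ratio was 0.718 at the near start, 0.596 at the far start and 0 at the RefSeq start. By the limits given below, the near start was CpG rich and the far start just missed the ratio limit of 0.6.

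Ank2, which encodes the membrane adaptor ankyrin-B, had the farthest upstream start of all members, and the bases before its 2 outermost starts are shown for the same comparison. They lie on the minus strand at chr3:127498962-127499111 for the upstream start and chr3:126998453-126998602 for the RefSeq start.
Ank2 upstream start: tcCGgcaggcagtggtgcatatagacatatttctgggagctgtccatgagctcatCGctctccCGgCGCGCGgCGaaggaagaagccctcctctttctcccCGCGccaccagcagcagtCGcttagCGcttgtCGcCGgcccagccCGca
Ank2 RefSeq start: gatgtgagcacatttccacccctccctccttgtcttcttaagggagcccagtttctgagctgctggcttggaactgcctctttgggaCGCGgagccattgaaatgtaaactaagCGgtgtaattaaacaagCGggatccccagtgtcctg
The upstream stretch of Ank2 held 14 CG pairs and the RefSeq stretch held 4.

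Most genes of the lists described below were not CpG rich at their farthest upstream start. By the limits given below, 5 of the 29 list members were. The stretches before the upstream starts of Nkx2-5, a homeobox factor of cardiac progenitors (minus strand, chr17:26845035-26845184), and of Ppargc1a, which encodes the coactivator PGC-1α of mitochondrial genes (minus strand, chr5:51567704-51567853), held 4 and 3 CG pairs.
Nkx2-5 upstream start: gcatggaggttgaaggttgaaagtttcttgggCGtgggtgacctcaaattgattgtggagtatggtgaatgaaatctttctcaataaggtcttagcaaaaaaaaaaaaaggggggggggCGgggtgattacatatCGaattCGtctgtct
Ppargc1a upstream start: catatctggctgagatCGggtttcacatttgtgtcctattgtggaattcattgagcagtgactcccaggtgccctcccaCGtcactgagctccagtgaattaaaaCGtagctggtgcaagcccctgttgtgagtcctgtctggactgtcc
Both of these starts had a GENCODE start close by, at 25 bp for Nkx2-5 and 1 bp for Ppargc1a.

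A first exon ends at a splice donor, and the donors are shown because each upstream exon is joined to its gene there. Spliced aligners place junctions mainly at GT or GC donors, so the donor bases are no independent evidence for a join. Each line gives the last 8 bases of the upstream first exon and the first 12 bases of its intron, with the first 2 intron bases in capitals, read from GRCm38.p6 on the strand of the gene.
Tbx5 far start, plus strand, chr5:119796865-119796884: accaccagGTaagtcgccag
Tbx5 near start, plus strand, chr5:119832917-119832936: tattggagGTgagtcttgtt
Nkx2-5, minus strand, chr17:26844847-26844866: tagactggGTaagtagcctt
Gata4, minus strand, chr14:63271572-63271591: cacctaggGTgagtcacctc
Meis2, minus strand, chr2:116067113-116067132: gagcagagGTaaagccagct
Ets1, plus strand, chr9:32636307-32636326: gcaaattaGTaagtgagagc
Ank2, minus strand, chr3:127498656-127498675: tccgtcagGTgggtgctggg
Nrg1, minus strand, chr8:32008998-32009017: gagcccagGTgagtgccagc
Dst, plus strand, chr1:33908445-33908464: aagcagagGTaagacacgcc
Ppargc1a, minus strand, chr5:51567618-51567637: ttttgaaaGTgagtaaccgg
Lmna, minus strand, chr3:88531345-88531364: actgggagGTgagttagttc
Myl3, plus strand, chr9:110750907-110750926: agaggctgGTaggtccctag
Pdlim5, minus strand, chr3:142429836-142429855: tttctcagGTaagatgcagt
Cmtm3, plus strand, chr8:104339481-104339500: atctctggTTagtccagcac
Of the 598 upstream first exons, 588 (98.3%) ended at a GT donor and 7 at a GC donor. The 3 others belonged to Cmtm3, Pop4 and Prdm10. At the RefSeq first exons of the same loci, 592 donors (99.0%) were GT. Of the 3 exceptions, Cmtm3 had an annotated start 22 bp away in GENCODE and 5 bp away in later RefSeq, whereas the first exon of Pop4, a subunit of ribonuclease P, was 6 nt long and lay 166416 bp upstream with no annotated start or intron.

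The upstream starts were spread over a wide range of distances. The median was 9399.5 bp (95% interval 7280 to 10828), with quartiles at 2233 and 32799 bp. By distance, 127 loci lay between 1000 and 2000 bp, 182 between 2000 and 10000 bp, 182 between 10000 and 50000 bp, 65 between 50000 and 100000 bp and 42 farther away. The rule sets the lower limit of these distances. Just inside it were Sdcbp2 and Eml6 at 1013 bp and Klc4 at 1016 bp, and just outside were Ric8 at 999 bp, 5730494N06Rik at 997 bp and Rps4x at 996 bp. The longest distances were 500509 bp in Ank2, 416101 bp in Sox5 (an SRY-box factor of cartilage and neurons), 412621 bp in Lphn2 (an adhesion receptor), 390761 bp in Fgf13 and 372468 bp in Inpp4b (a lipid phosphatase).

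**Figure D2:**
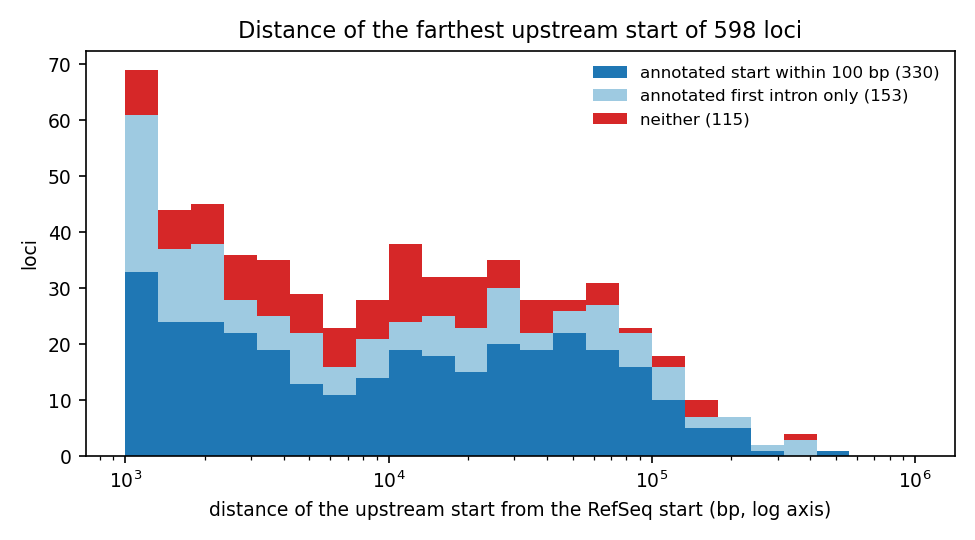
Number of loci by the distance of the farthest upstream start from the RefSeq start (log axis, bp), stacked by whether GENCODE M21 or RefSeq GRCm38.p6 has a start within 100 bp, only the first intron, or neither. All 3 classes occur from 1000 bp to over 100000 bp, with 330, 153 and 115 loci.

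Most loci had a single upstream start. One 5′ end was found in 354 loci, 2 in 126, 3 in 67, 4 in 31 and 5 or more in 20. When 5′ ends within 100 bp were joined, 845 groups of starts remained and 174 loci (29.1%) had 2 or more groups, with at most 5. Mid2, a microtubule-associated ubiquitin ligase, had the most 5′ ends, 8, and was chosen after its value was seen. Ank2 had 6 upstream starts, at 40394, 41694, 126405, 126410, 410566 and 500509 bp. Of these, the start at 410566 bp lay 13 bp from a GENCODE start and that at 500509 bp lay 40 bp from one, while those at 126405 and 126410 bp lay 23 and 18 bp from a later RefSeq start. Fgf13, an intracellular FGF homologue that binds sodium channels, had starts at 117940, 321226 and 390761 bp, none within 100 bp of an annotated start.

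The first exons were short as assembled. Whether the assembled 5′ ends are the sites where transcription begins was not tested. Their median length was 120.5 nt (107 to 140), against 194 nt (172 to 211) for the RefSeq first exons of the same loci and 212 nt for those of the 18953 other loci. The range ran from 5 to 9422 nt, and 40 were longer than 1000 nt. The 3 longest, in Impact at 9422 nt, Rnf44 at 5689 nt and Bscl2 at 5137 nt, ran without a splice across the RefSeq start, as did 30 upstream first exons in all. The loci were also longer than others, with a median of 11 exons in the RefSeq transcript against 7 and a median body of 37467 bp against 16518 bp. A variant must share a splice junction, so loci of 1 exon could not be members, and the other loci were not matched for level.

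Upstream exons joined the gene mostly at its second exon. In 512 loci (85.6%) the first exon shared with the RefSeq transcript was exon 2, and in 55 it was exon 3 or later. Only Ip6k2, an inositol phosphate kinase, shared no acceptor with the RefSeq transcript while being spliced. Among the 567 loci spliced to a shared exon, 219 (38.6%) had 1 new exon before it, 256 (45.1%) had 2, 52 had 3 and 40 had 4 or more. The median first intron was 11027 bp. Ank2 had 21 new exons before exon 2, Nrg1 had 5, and Dst and Lmna had 4 each, whereas Tbx5, Gata4, Mylk3, Fgf1 and Ppargc1a had 1.

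Many of the upstream starts were in annotations that the rule did not use. The rule compares transcripts with the RefSeq set of the deposited assembly, and 177006 of its 177573 RefSeq introns (99.7%) were in GENCODE M21. A GENCODE start on the same strand lay within 100 bp of 261 upstream starts (43.6%, 39.7 to 47.6), against 557 (93.1%) of the RefSeq starts of the same loci and 93.2% of the RefSeq starts of the other loci. A later RefSeq start lay as close to 259 (43.3%), and 330 (55.2%) had one in either. Predicted transcript models count among the later RefSeq starts and introns. The first intron was listed in GENCODE for 377 loci, in later RefSeq for 440 and in either for 462 (77.3%). For exons that run unspliced across the RefSeq start, the first intron is that of the RefSeq transcript itself.

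A group of 115 loci (19.2%, 16.3 to 22.6) had neither an annotated start within 100 bp nor an annotated first intron. Their median distance was 8871 bp, near that of all members. The median of their highest FPKM was 13.0 (9.54 to 18.5), against 10.2 (9.17 to 11.8) for the 483 loci with annotation, so these intervals overlapped. Several of the most abundant loci belonged to this group. Myl3, the essential light chain of ventricular myosin, had an exon of 98 nt at 12864 bp. Cox6a2, the muscle form of a cytochrome oxidase subunit, had one of 34 nt at 1933 bp. Pdlim5, a Z-disc adaptor, had one of 362 nt at 34513 bp, and the tetraspanin gene Cd81 had one of 72 nt at 10125 bp. Of the 29 members in the 6 gene lists described below, 6 were in this group, among them Cox6a2, Fgf13, Foxp1, Myl3 and Pdlim5.

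CpG content at the upstream starts was compared with that at the RefSeq starts. For each start, the 250 bases before it and 50 from it on were read, and the window was called CpG rich when it had at least 50% G and C and a ratio of CG pairs to their expected number of at least 0.6. This held for 265 upstream starts (44.3%, 40.4 to 48.3), 178 RefSeq starts of the same loci (29.8%, 26.2 to 33.6) and 9189 RefSeq starts of the other loci (48.5%, 47.8 to 49.2). The other loci were not matched for level: 60.7% of them reached 1 FPKM in some library, against 97.3% of members. Within the members the upstream start was the only CpG-rich one in 214 loci and the RefSeq start in 127, while both were rich in 51 and neither in 206. The median ratio was 0.557 at the upstream starts, 0.407 at the RefSeq starts and 0.613 at the starts of other loci. In a separate set of 32851 RefSeq promoter windows of this length, not limited to the loci compared here, 33.5% met the same limits. Why this share was below the 48.5% of the other loci was not tested.

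The share of CpG-rich windows went with annotation. It was 62.5% (56.4 to 68.1) at the 261 upstream starts with a GENCODE start, 30.3% (25.6 to 35.4) at the 337 without, and 10.4% (6.07 to 17.4) at the 115 with no annotated start or intron. Starts inside a masked repeat were 20 of 261 (7.66%) with a GENCODE start and 51 of 337 (15.1%) without. Overall 71 upstream starts (11.9%) and 72 RefSeq starts (12.0%) of these loci lay in a masked repeat, against 7.94% of the starts of other loci. How much repeats or the mapping of reads contributed to the unannotated starts was not tested.

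**Figure D3:**
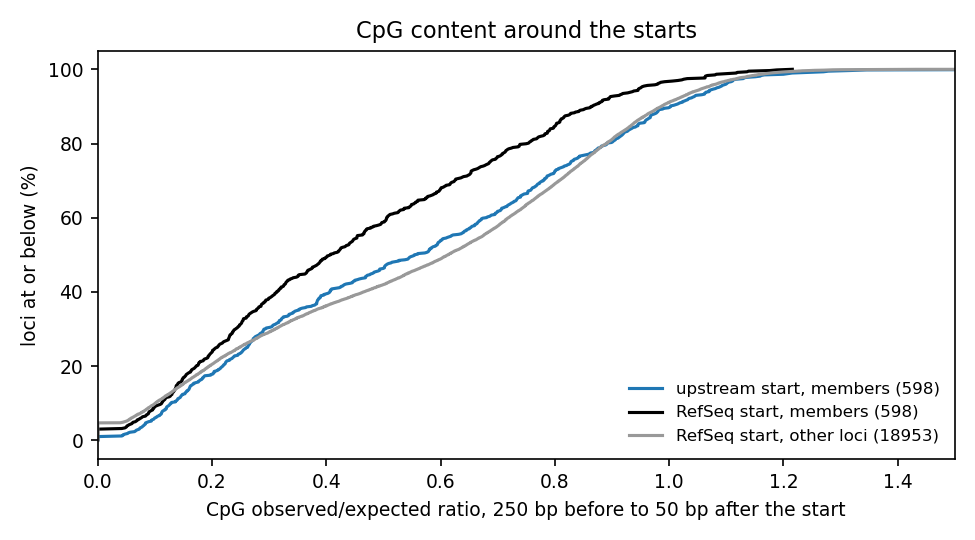
Share of loci (%, y axis) at or below each ratio of observed to expected CpG (x axis) in the window from 250 bp before to 50 bp after a start. The curve of the members' RefSeq starts (median 0.407) lies left of that of their upstream starts (0.557) and that of the RefSeq starts of other loci (0.613).

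The heart genes fell on both sides of this comparison. At Ank2 the ratio was 0.848 at the upstream start and 0.229 at the RefSeq start, and at Lmna, which encodes lamin A/C, it was 0.744 and 0.167. Nrg1, an endocardial growth factor, had 0.695 and 0.407. The order was the opposite at Gata4 with 0.0988 upstream and 0.863 at the RefSeq start, at Ets1 with 0.348 and 0.868, at Irx4 with 0.156 and 0.828 and at Fhl2 with 0.0862 and 0.827. Of the 29 list members, 5 were CpG rich at the upstream start and 10 at the RefSeq start.

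Starts on the opposite strand were counted within 3000 bp. A protein-coding gene began there at 104 upstream starts (17.4%, 14.6 to 20.6), at 37 RefSeq starts of the same loci (6.19%, 4.52 to 8.41) and at 11.2% (10.8 to 11.7) of the RefSeq starts of other loci. These other loci were again not matched for level. An opposite transcript without a RefSeq match, and no coding gene, began at 49 upstream starts (8.19%), 32 RefSeq starts and 7.78% of those of other loci. The closest pairs, chosen after their values were seen, were Arl6ip5 with Uba3 at 3 bp, Mettl15 with Kif18a at 9 bp and Mrpl36 with Ndufs6 at 20 bp. Among list members, the upstream start of Dst, a cytoskeletal linker, lay 609 bp from the start of Bend6, and that of Lmna lay 911 bp from the start of Mex3a. Unmatched transcripts of the opposite strand began 301 bp from the upstream start of Nkx2-5, 352 bp from that of Meis2 and 636 bp from that of Fhl2. Only 3 upstream starts, of 2810021J22Rik, Cdc14b and Slc25a37, lay inside another protein-coding gene of the same strand.

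The effect on the reading frame was read from the exons. The annotated coding start could be placed for 556 loci. The upstream transcript held it in 408 (73.4%, 69.6 to 76.9) and skipped it in 148 (26.6%, 23.1 to 30.4). Among the 148, the frame read upstream from the first shared codon met an ATG before a stop in 79 (53.4%), at a median of 23 codons. Among the 408, this happened in 48 (11.8%), at a median of 51 codons. Whether such codons are translated was not measured.

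Of the 29 list members, 18 kept the coding start and 11 skipped it. Among the 11, the frame met an upstream ATG in 7 and did not in Cox6a2, Hif1a, Npr3 and Thrb. In Ank2 the open frame continued 859 codons upstream of the RefSeq coding start. In Nrg1, Dst and Ets1 the coding start was skipped and the frame reached an ATG 168, 209 and 72 codons upstream of the first shared codon. The frame of Ppargc1a, also without the RefSeq coding start, reached one 12 codons upstream, that of Meis2 23 and that of Mylk3, the cardiac myosin light chain kinase, 29. All 6 sarcomere members and 5 of the 7 transcription factors kept the coding start.

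Members were expressed more often than other loci. At least 1 FPKM was reached by 520 of 598 members (87.0%) at E10.5, by 536 (89.6%) at E13.5 and by 519 (86.8%) in the Adult library, against 54.6%, 56.1% and 53.7% of the other loci. An isoform can only be assembled where fragments are present, so low loci could hardly become members. Among loci at 1 FPKM or more, the median member was at 9.05, 7.71 and 7.76 FPKM and the median of other loci at 11.7, 11.9 and 8.30. In all, 582 members reached 1 FPKM in at least 1 library and 463 in all of them. Listed at 0 in Adult were 1700001O22Rik, Aipl1, Plac1, Tekt4 and Ttn, and since a 0 can be a failed estimate, no fold is given for these.

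Above 1 FPKM the share of loci with an upstream start did not rise with the level. By the highest FPKM of the libraries it was 0.214% under 1 FPKM, 5.41% from 1 to 3, 5.71% (4.97 to 6.54) from 3 to 10, 4.86% from 10 to 30, 3.41% (2.73 to 4.24) from 30 to 100 and 3.70% at 100 or more. From the smallest steps between low FPKM values, the depth behind these values was about 13.6, 25.8 and 16.3 fragments per kilobase at 1 FPKM.

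**Figure D4:**
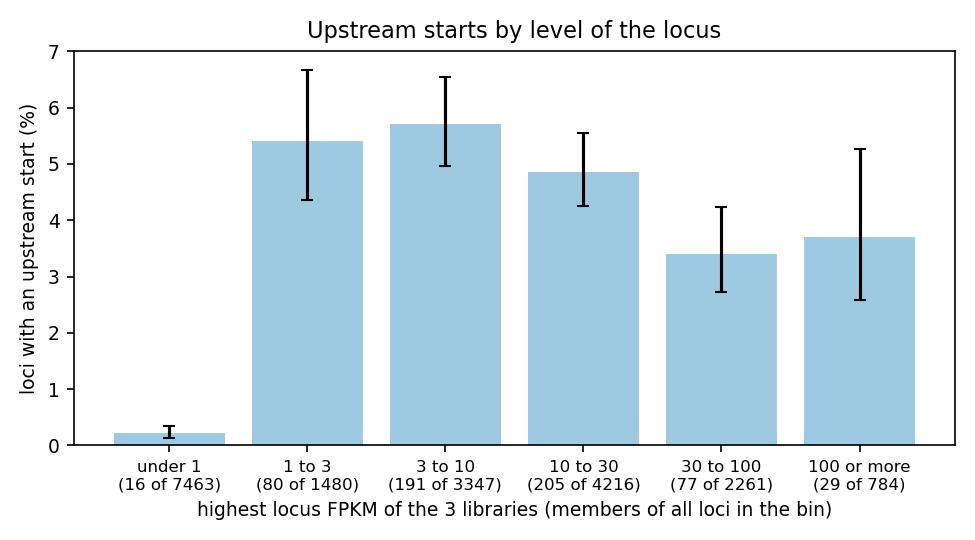
Share of single-gene loci with an upstream start (%, bars with 95% Wilson intervals) by the highest FPKM of the locus over the 3 libraries. The share is 0.214% under 1 FPKM and between 3.41% and 5.71% in the 5 higher bins.

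As a check of the tissue, all 8 cardiomyocyte markers were measured and had medians of 566, 1134 and 2053 FPKM in E10.5, E13.5 and Adult, ranging from Tbx5 at 4.23 FPKM in Adult to 4487, 4646 and 4551 FPKM in the highest marker of each library. The 5 atrial markers had medians of 57.2, 26.2 and 0.898 FPKM, and the 6 markers of embryonic and maturing red cells had medians of 538, 200 and 1.21, with highest markers at 4356, 15112 and 19.6 FPKM. The 4 measured macrophage markers had medians of 1.33, 11.7 and 33.5 FPKM. The 6 endothelial markers lay at 47.3, 34.6 and 52.5 FPKM and the 7 epicardial and fibroblast markers at 18.3, 33.3 and 11.2, with the highest of these 7 at 124, 211 and 351 FPKM. The 6 skeletal muscle markers, which include Acta1 and Ckm, also expressed by heart muscle, had medians of 0.0224, 0.265 and 0.0271 FPKM and reached 266, 171 and 1142 FPKM in the highest marker. The 5 liver markers had medians of 0.605, 2.22 and 0.0243 FPKM and reached at most 10.7 FPKM. In bulk tissue, fewer cells of a type and less RNA per cell cannot be told apart.

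Heart genes were grouped in lists by role, and 24 of the 223 measured genes of 5 such lists (10.8%) had an upstream start, against 3.06% of all loci. Among them 18 lay at 2000 bp or more. Over the 12088 loci at 1 FPKM or more in some library the share was 4.81%. The lists were chosen with results of these data known, so their counts are descriptions.

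Of 52 cardiac transcription factors, 7 had an upstream start, at a median of 21234 bp: Ets1, Foxp1, Gata4, Irx4, Meis2, Nkx2-5 and Tbx5. Gata4, a zinc finger factor of heart muscle, had its upstream start at 26658 bp with a first exon of 335 nt, and its locus was at 63.6, 43.0 and 19.5 FPKM in E10.5, E13.5 and Adult. For Nkx2-5 the distance was 3469 bp and the levels were 46.8, 61.1 and 9.37 FPKM. Both loci were lowest in Adult. Irx4, a homeobox factor of ventricles, lay at 24.0, 21.5 and 7.60 FPKM with a start at 1059 bp. Meis2, a homeobox cofactor, lay at 24.9, 36.6 and 7.06 FPKM with a start at 2253 bp. Foxp1, a forkhead factor, was at 16.2, 16.5 and 6.10 FPKM with a start at 21234 bp that neither annotation held. Adult was the lowest library for these 3 as well. Ets1, an ETS factor of endothelium and neural crest, hardly moved, at 40.6, 46.4 and 39.9 FPKM, with a start at 59816 bp.

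Of 34 measured sarcomere and Z-disc genes, 6 had an upstream start, none of them CpG rich. Myl2, the regulatory light chain of ventricular myosin, was the most abundant member in every library at 7790, 12217 and 11568 FPKM, and its first exon ran unspliced from 1345 bp upstream. Myl3 was at 1087, 2238 and 2215 FPKM. Both light chains were lowest in E10.5. Fhl2, a LIM domain protein of the sarcomere, was at 71.8, 116 and 877 FPKM with a first exon of 1360 nt at 34049 bp. Pdlim5 was at 182, 149 and 454 FPKM. Both of these loci were highest in Adult. Ttn, the molecular spring titin, was at 428 and 46.8 FPKM in the embryonic libraries, with an unspliced extension of 1144 bp.

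Ion channel and calcium handling genes with an upstream start were Ank2, Fgf13 and Kcnj3, 3 of 40. Ank2 was at 8.88, 5.51 and 20.7 FPKM. Fgf13 was at 34.2, 21.2 and 47.1 FPKM, with a first exon of 3632 nt. Kcnj3, a subunit of the acetylcholine-gated potassium channel, was at 7.15, 4.33 and 27.0 FPKM with a start at 1419 bp. In each of these loci E13.5 was lowest and Adult highest.

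Of 63 signalling genes, 5 had an upstream start. Npr3, the clearance receptor of natriuretic peptides, was at 86.1, 50.4 and 1.82 FPKM with a start at 1460 bp. Nrg1 was at 7.77, 2.20 and 0.224 FPKM with a start at 91314 bp. Both were highest in E10.5 and lowest in Adult. Fgf1, a growth factor, was at 4.67, 4.74 and 53.0 FPKM (start at 10928 bp) and Mylk3 at 61.4, 81.4 and 185 FPKM (11676 bp), both highest in Adult. Fgfr1, an FGF receptor, was at 9.53, 5.29 and 4.72 FPKM with a start at 4583 bp. Of 34 measured genes of adult heart metabolism, 3 had one: Cox6a2 at 76.0, 200 and 814 FPKM, Acacb, which makes the malonyl-CoA that restrains fatty acid entry into mitochondria, at 6.66, 5.79 and 34.0 FPKM (19434 bp), and Ppargc1a at 11.4, 9.51 and 23.4 FPKM (13659 bp).

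**Figure D5:**
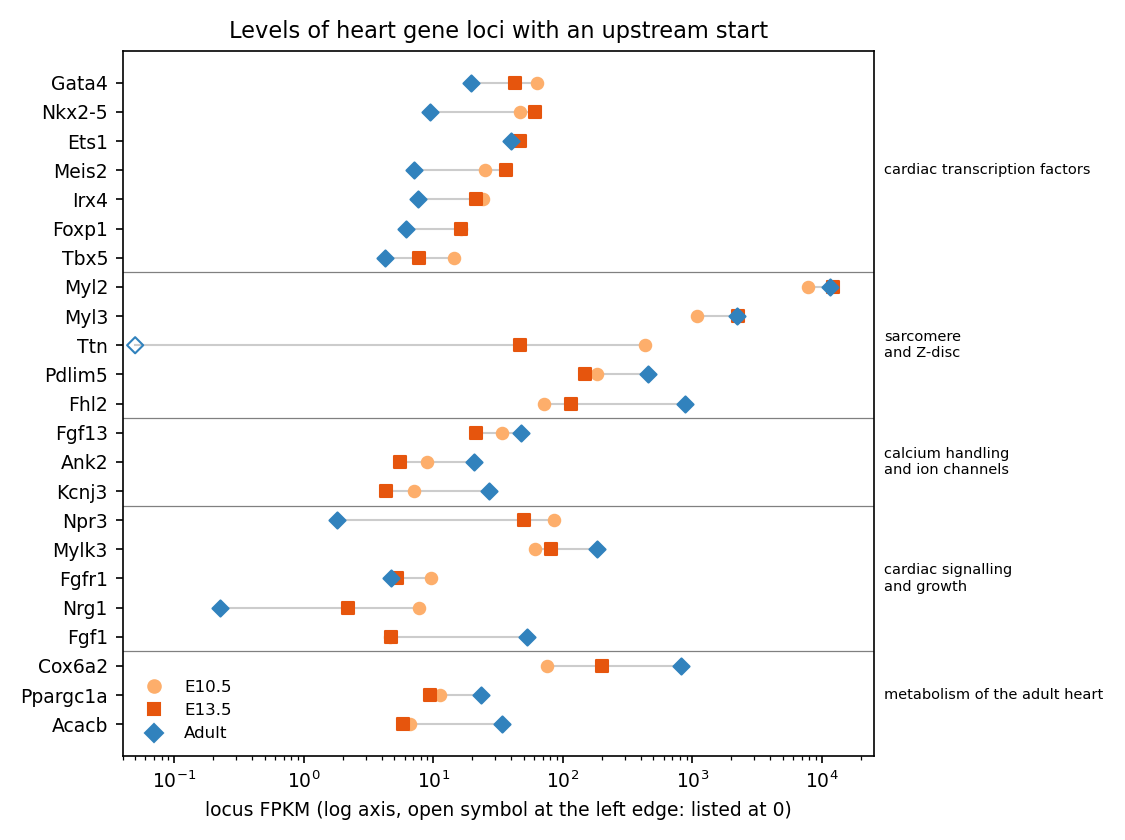
Locus FPKM (log axis) of members of the 5 heart gene lists in E10.5 (circles), E13.5 (squares) and Adult (diamonds), 1 library each. As deposited, Adult is the lowest library for all 7 transcription factors and the highest for all 3 ion channel and all 3 metabolism members. Ets1 hardly differs between E10.5 (40.6 FPKM) and Adult (39.9 FPKM), so its order depends on the scaling. Ttn is listed at 0 in Adult (open symbol).

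A list of 43 measured genes known for alternative promoters held 11 members (25.6%): Acacb, Ank2, Dst, Fgf1, Fgf13, Hif1a, Lmna, Nr3c1, Nrg1, Ppargc1a and Thrb. Their median distance was 19434 bp, 6 had an annotated start within 100 bp and only Fgf13 had neither start nor intron in the annotations. Dst was at 17.5, 9.76 and 86.2 FPKM with a start at 103595 bp. Hif1a, the oxygen-regulated factor, was at 169, 153 and 63.1 FPKM with a start at 6620 bp. Lmna was at 20.2, 46.8 and 28.4 FPKM with 4 upstream starts, the farthest at 28152 bp. The 3 loci peaked in different libraries.

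Changes between stages were taken as differences of log2(FPKM + 1), and those of 2 or more were counted over loci at 1 FPKM or more in some library. From E10.5 to E13.5, 3 of the 582 members rose past this limit and 2 fell past it, while over all 12088 single-gene loci 0.802% were higher and 0.24% lower. The risers, chosen after their values were seen, were Pop4 (12.0 to 60.5 FPKM), Cenpv, a centromere protein (5.61 to 29.3), and Csf1r, a receptor of macrophages (0.729 to 6.01). None of these 3 had an annotated upstream start or intron. The fallers were Ttn and Srrm2, a splicing factor (65.7 to 14.6).

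From E13.5 to Adult, 42 members (7.22%) were higher and 41 (7.04%) lower, against 4.28% and 9.84% of all loci. From E10.5 to Adult, 45 (7.73%) were higher and 49 (8.42%) lower, against 5.39% and 8.15%. These splits depend on the scaling of the libraries: with median-of-ratios factors they became 63 higher and 27 lower of 579 members against E13.5, and 55 and 37 against E10.5, while over all loci they became 840 and 737, and 925 and 742. The median change of members from E13.5 to Adult was -0.13 and that of all loci -0.50. With median-of-ratios factors these medians were 0.37 and -0.02. From E10.5 to Adult they were -0.18 and -0.40 as deposited and 0.17 and -0.05 rescaled, so the members' median lay above that of all loci with either scaling. From E10.5 to E13.5 it lay below, at 0.01 against 0.17.

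Leaving out loci listed at 0, such as Ttn, the largest falls from E10.5 to Adult were those of Npr3 (-4.95), Prrx2 (-4.06), Sema3a (-3.94), Nt5dc2 (-3.81), Mylpf (-3.65) and Hells (-3.60). Prrx2, a homeobox factor of mesenchyme, was at 22.1, 39.2 and 0.387 FPKM with a start at 2472 bp, and Sema3a, an axon guidance cue, at 27.7, 9.66 and 0.874 FPKM with a start at 116803 bp. Mylpf, a skeletal myosin light chain, was at 29.9, 8.69 and 1.46 FPKM, and its upstream start lay 382 bp from the start of Tbc1d10b on the opposite strand. Hells, a chromatin remodeller of dividing cells, was at 29.1, 28.0 and 1.49 FPKM. Their E10.5 and Adult values were far apart, with Adult at 7.99 FPKM or less in all 6.

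The largest rises were those of Lcn2 (6.99), Asb11 (5.11), Srgn (4.75), Gpihbp1 (4.61), Lpin1 (4.08) and Csf1r (3.87). Lcn2, a siderophore-binding protein of neutrophils and inflamed tissue, was at 0.246, 0.298 and 157 FPKM. Srgn, a granule proteoglycan of blood cells, was at 3.06, 5.62 and 108 FPKM with a start at 19623 bp that lay 47 bp from a GENCODE start. Gpihbp1, the capillary anchor of lipoprotein lipase, was at 0.806, 1.02 and 43.0 FPKM, and Lpin1, a phosphatidate phosphatase, at 2.84, 2.74 and 64.1 with a start at 57305 bp. In these 6 loci Adult was the highest library. Csf1r and the other measured macrophage markers were all higher in Adult (11.1 to 51.0 FPKM) than at E10.5 (0.729 to 2.49 FPKM), and the part of blood-derived cells in the rises of Lcn2, Srgn and Csf1r was not tested.

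Changes of list genes were counted only where the gene had an upstream start. With FPKM as deposited, the change from E10.5 to Adult passed 2 in Nkx2-5 (-2.20) alone among the 7 such transcription factors. Of all loci, 5.39% were higher and 8.15% lower by 2 or more. Median-of-ratios factors can move changes near 2 across the limit, and the list members were not recounted with them. Fhl2 (3.59) was among the sarcomere members past 2 on the rise, and Fgf1 (3.25) was the signalling member, with Npr3 and Nrg1 (-2.84) past 2 downwards. In metabolism these were Cox6a2 (3.40) and Acacb (2.19), and among the alternative promoter genes Dst (2.23), Fgf1, Acacb and Thrb (2.55), the thyroid hormone receptor β, which was chosen after its value was seen. As deposited, none of the ion channel genes with an upstream start passed 2 from E10.5 to Adult. From E13.5 to Adult, Meis2 (-2.22) among the transcription factors and Kcnj3 (2.39) among the ion channel genes passed 2, while Nrg1 (-1.39) did not.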

How the data were processed

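Total RNA libraries of heart ventricle at E10.5, E13.5 and Adult were analysed, 1 per stage. Per the labels and the study, TopHat2 (with Bowtie) aligned the fragments to mm10, and Cufflinks assembled transcripts in runs both guided and not guided by UCSC annotation; versions and options are not given in the sources used here. The authors deposited 1 table of FPKM per merged locus and library (48626 loci) and the exons of the merged transcripts (48617 loci), each labelled by its relation to RefSeq. The FPKM values cover all isoforms of a locus, and the transcripts are merged over the libraries, so neither the level nor the stage of an upstream start can be read. The columns sum to 601115, 808971 and 443471.

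Members and gene lists were chosen with earlier results of these data known. Starts, introns, coding starts and sequence were compared with GENCODE M21, RefSeq GRCm38.p6 and the GRCm38.p6 genome. Intervals are 95% Wilson intervals for shares and 95% binomial order-statistic intervals for medians, and cover the sampling of loci and not animals. The depth estimate assumes that the lowest step of the FPKM column is 1 fragment and is approximate. Changes are differences of log2(FPKM + 1), which understates changes of low loci. Named genes were Tbx5, the members of the first 3 heart lists, the 6 highest of each other list, the 5 longest distances, the 3 loci on either side of the limit, the 5 highest loci per library, the 6 largest rises and falls, and the 3 longest first exons; 1 of these genes is counted but not reported here. The rule was run on copied transcripts with 5′ ends shifted by known distances, and the change limit on FPKM multiplied by known factors without noise. These runs check the arithmetic and not the assembled starts or the stage changes. Python 3.11.15, numpy 2.4.6, pandas 2.3.3, scipy 1.17.1, pysam 0.24.0 and matplotlib 3.10.9 were used.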

Additional observations from a re-analysis of the deposited data

How the results depend on the processing

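No paired analysis was possible because every stage is represented by a single library without a replicate number, and no library could be left out for the same reason. Of 59 alternative values, 39 stayed within the interval of the value or, for counts, within 1.5 times of it, and 20 moved further. The number of loci was 352 at a minimum distance of 5000 bp and 289 at 10000 bp. With the nearest start of each locus the median distance was 6983.5 bp. The share with a GENCODE start was 32.9% within 50 bp, 64.7% within 500 bp and 37.5% when the GENCODE transcript had to carry the same gene name. At 0.5 FPKM the expressed share in E10.5, E13.5 and Adult was 93.0%, 94.3% and 92.1%, and at 2 FPKM it was 79.6%, 81.3% and 77.4%. Median-of-ratios scaling (factors 1.07, 1.19 and 0.804) moved the median level to 5.40 FPKM in E13.5 and 7.69 in Adult and left 27 members lower in Adult than E13.5. With a pseudocount of 0.1, 10 members were higher and 8 lower in E13.5 than E10.5, 75 were lower in Adult than E13.5 and 76 lower than E10.5. Without loci listed at 0, 1 member was lower in E13.5 than E10.5. The causes of these moves were not tested. Chosen after seeing the data were the comparison with later RefSeq starts (43.3%) and the counts without unspliced extensions (568 loci, median distance 10271.5 bp), and these did not move.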
